A study of Rattus norvegicus with 12 samples.

Results

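The genes described here encode the neuronal cytoskeleton and the proteins of axon growth: tubulins, microtubule-associated proteins, neurofilaments, stathmins, growth cone membrane proteins, collapsin response mediators, axonal kinesins, actin and cofilin. They were taken by gene symbol from a list of 40, and 29 of them had a named probe among the 9653 named genes of the array. All 29 had enough values to be tested, through 34 probes, of which 25 genes had a single one. No probe carried the symbols Tuba1b, Tuba1c, Tubb2a, Tubb4a, Tubb4b, Marcks, Dpysl3, Crmp1, Kif5a, Kif5c and Actb, so both kinesins and actin itself were not analysed here. The rule used gene symbols and no measured value, but it and the list were chosen with earlier results of these data known.

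RNA came from primary cortical neurons of rat fetuses taken from 3 mothers at pregnancy day 17, with 4 culture plates per mother. On day 16 in vitro, plates stood for 6 h in a gas-tight chamber with halothane at 1 MAC (about 1% of the gas), halothane at 3 MAC (about 3%) or isoflurane at 3 MAC (about 4%). They were collected after 6 h of recovery. Control plates were kept in air in the same incubator but outside the chamber, so the gas and the chamber cannot be told apart in any difference from control. MAC, the minimum alveolar concentration, is the clinical unit of potency for inhaled anaesthetics. Both gases are halogenated volatile anaesthetics, halothane an alkane and isoflurane an ether. Each of the 4 groups had 3 arrays, no isoflurane group at 1 MAC was part of the design, and no genotype, strain or fetal sex is given in the labels. The labels do not settle whether each mother gave a plate to every group, so the p-values measure the spread between plates, and mothers and treatments may not be separable.

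A microtubule is a hollow polymer of alpha- and beta-tubulin dimers, seeded by gamma-tubulin. In a growing axon, microtubule-associated proteins hold it together, stathmins bind free dimers and promote disassembly, and collapsin response mediators deliver tubulin and relay repulsive guidance signals. Neurofilaments are the intermediate filaments of mature axons and set their calibre, and Gap43 and Basp1 sit under the growth cone membrane, where actin is turned over by cofilin.

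Every value below is a log2 ratio of a sample over a common pool of control RNA. It shows how a gene differs between arrays but not how abundant its RNA is, so genes are not ranked by level. The direction of the ratio and the log base of the deposited values are likely and not stated, and the opposite direction would exchange every higher and lower. Of the 12 arrays, 2 stood apart. Across 8933 genes, the mean r of control 2 was 0.76 with halothane 3 MAC and 0.01 with the other controls. That of control 1 was 0.47 with halothane 1 MAC, 0.40 with isoflurane and 0.24 with the other controls. That of control 3 was 0.55 with isoflurane, 0.31 with halothane 1 MAC and 0.18 with the other controls. Each control thus had its highest mean r with a different treatment, and whether this follows the mothers was not tested. Halothane 1 MAC replicate 1 had an SD over features of 0.818, against 0.315 to 0.481 on the other arrays, and a median of 0.235. It held 330 exact zeros, against 953 to 2124 elsewhere. Of 471 spots at the limit value, it had 0 there, against 467 to 471 elsewhere. Its mean r was 0.04 with its own group and 0.02 to 0.08 with the others, and its fitted array weight was 0.0513, against 0.43 to 2.86. Whether it was processed differently was not tested. Control 2 and halothane 1 MAC replicate 1 were kept, and several of the differences that rest on them are also given without them. Genes are not independent replicates, so these r describe the arrays and carry no test.

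Of the 29 genes, 2 passed the test in any of the 6 comparisons between groups, and both did so between the gases at 3 MAC. Tubb6, a beta-tubulin found in many tissues, was higher after isoflurane than after halothane 3 MAC by 1.67 ± 0.40 on the log2 scale (SE, 3 arrays against 3; 3.19-fold; limma adjusted p = 0.044). Dcx (doublecortin), which stabilises microtubules in migrating young neurons, was lower by that comparison (−1.26 ± 0.30; 2.39-fold; limma adjusted p = 0.045). In the same comparison 3.51% of all 16546 tested features passed, 2.47% higher and 1.03% lower, and the 2 genes of 29 are read against that share. Both calls lay close to the threshold. They were lost under median centring, quantile normalization, scaling of the arrays to 1 spread, or the replicate number as a block. They were also lost with exact zeros kept as values or variances not moderated. Over 22 alternative settings the limma adjusted p ran from 2.45e-05 to 0.154 for Tubb6 and from 0.000285 to 0.157 for Dcx, with no change of sign. The labels do not settle the mother of each array, so gas and mother may not be separable in these 2 calls. Across the 29 genes, the range of the 4 group means ran from 0.25 for Gap43 to 1.85 for Tubb6, with a median of 0.52. It exceeded 1 in 4 genes, Tubb6, Nefm, Dcx and Nefl.

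**Figure D1:**
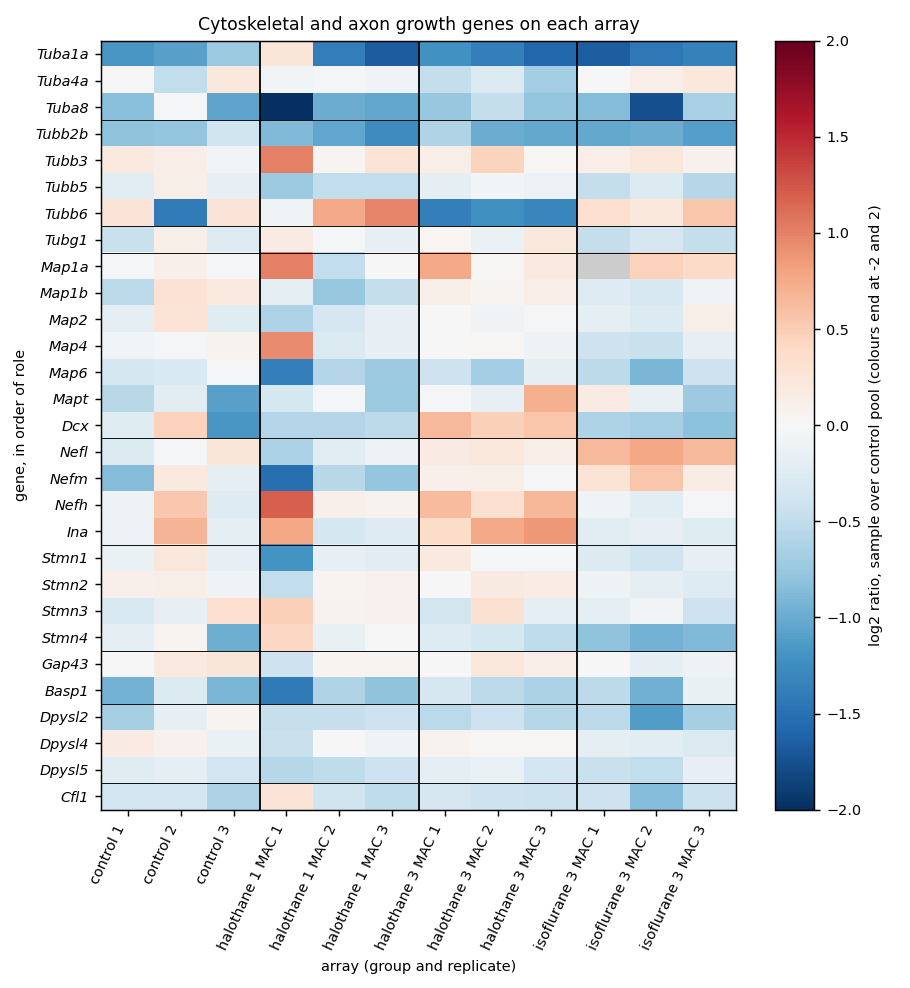
Log2 ratio of sample over control pool for the 29 measured genes (rows, by role) on the 12 arrays (columns, by group). Red is above the pool and blue below it, and grey is the missing Map1a value. Tubb6 is blue on all 3 halothane 3 MAC arrays and on control 2, and halothane 1 MAC replicate 1 differs from its group in many rows.

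Tubb6 read 0.26, −1.40 and 0.26 on control arrays 1 to 3 and −0.09, 0.75 and 0.98 on the halothane 1 MAC arrays. It read −1.37, −1.23 and −1.30 with halothane 3 MAC and 0.34, 0.23 and 0.56 with isoflurane. In this average of its probes, the 3 halothane 3 MAC arrays lay below every array of the other treatments. Control 2 lay below all 3 of them while the other controls stood above 0. On 1 of the probes alone, halothane 1 MAC replicate 1 (−1.08) lay among the halothane 3 MAC arrays, and control 2 (−1.0) lay above them. The mean after halothane 3 MAC was −1.30 ± 0.07 (SD, n = 3) and after isoflurane 0.38 ± 0.17. Between halothane doses Tubb6 differed by −1.85 ± 0.40 (SE; limma adjusted p = 0.062), which did not pass. Against control, halothane 3 MAC gave −1.0 ± 0.40 (limma adjusted p = 0.706). That difference was −1.55 against control 1, 0.10 against control 2 and −1.56 against control 3. Without control 2 it was −1.56 ± 0.27 and passed (limma adjusted p = 0.0133, against 0.000144 to 1 over 22 alternative settings). Isoflurane gave 0.67 ± 0.40 against control, or 0.12 ± 0.27 without control 2. The first value averages probes that did not go together, with 1.34 and 0 when fitted alone. Leaving out control 2 removes the control most like halothane 3 MAC, and the labels do not settle its mother.

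Dcx read −0.24, 0.46 and −1.16 on the controls and −0.59, −0.59 and −0.52 with halothane 1 MAC. It read 0.65, 0.48 and 0.55 with halothane 3 MAC and −0.62, −0.66 and −0.82 with isoflurane. In this average of its probes, the halothane 3 MAC arrays lay above all others, with control 2 just under them and control 3 lowest of all 12. Halothane 3 MAC was above halothane 1 MAC by 1.13 ± 0.30 (SE; limma adjusted p = 0.0969) and above control by 0.87 ± 0.30 (limma adjusted p = 0.706), and neither difference passed. Without control 2 the difference from control was 1.26 ± 0.23 (limma adjusted p = 0.0174, against 0.00669 to 1 over 22 alternative settings). Isoflurane and control differed by −0.38 ± 0.30, and without control 2 by 0.00 ± 0.23. As for Tubb6, the fit without control 2 lacks the control most like halothane 3 MAC.

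**Figure D2:**
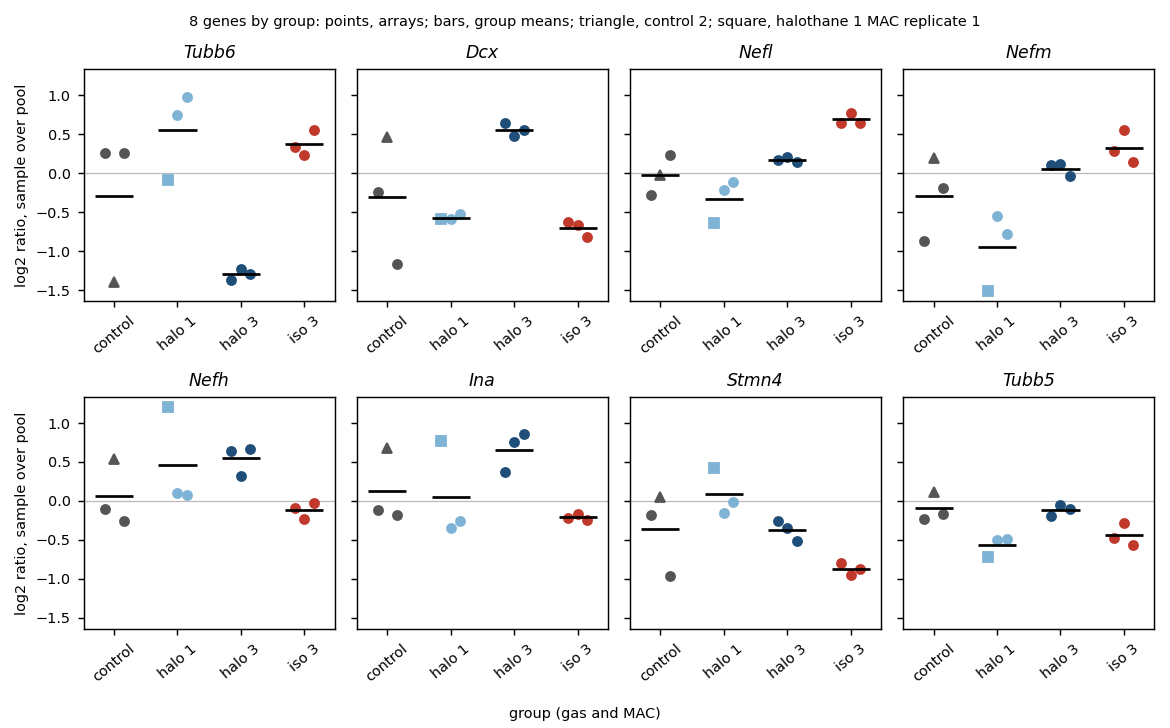
Log2 ratio of sample over pool for 8 of the genes by group, where each point is an array and each bar the mean of 3. The triangle is control 2 and the square halothane 1 MAC replicate 1. In Tubb6, Dcx, Nefh and Ina control 2 lies nearer to the halothane 3 MAC points than to the other controls.

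Both genes were measured by a pair of probes. The first Tubb6 probe read −1.68, −1.36 and −1.46 with halothane 3 MAC and 0.63, 1.17 and 1.11 with isoflurane. The second read −1.05, −1.09 and −1.15 with halothane 3 MAC and 0.04, −0.71 and 0.01 with isoflurane. The probes thus ranked the gases the same way, but fitted as features of their own they gave 2.47 (limma adjusted p = 0.0209) and 0.88 (limma adjusted p = 0.4). For Dcx the first probe read 0.85, 0.45 and 0.54 with halothane 3 MAC and −0.09, −0.27 and −0.37 with isoflurane. The second read 0.46, 0.51 and 0.55 with halothane 3 MAC and −1.15, −1.06 and −1.27 with isoflurane. Their differences between the gases were −0.85 (limma adjusted p = 0.128) and −1.66 (limma adjusted p = 0.0272). In each gene 1 of the 2 probes passed alone. The tubulins are close copies of each other in coding sequence, and whether a probe also reads a related tubulin was not tested.

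**Figure D3:**
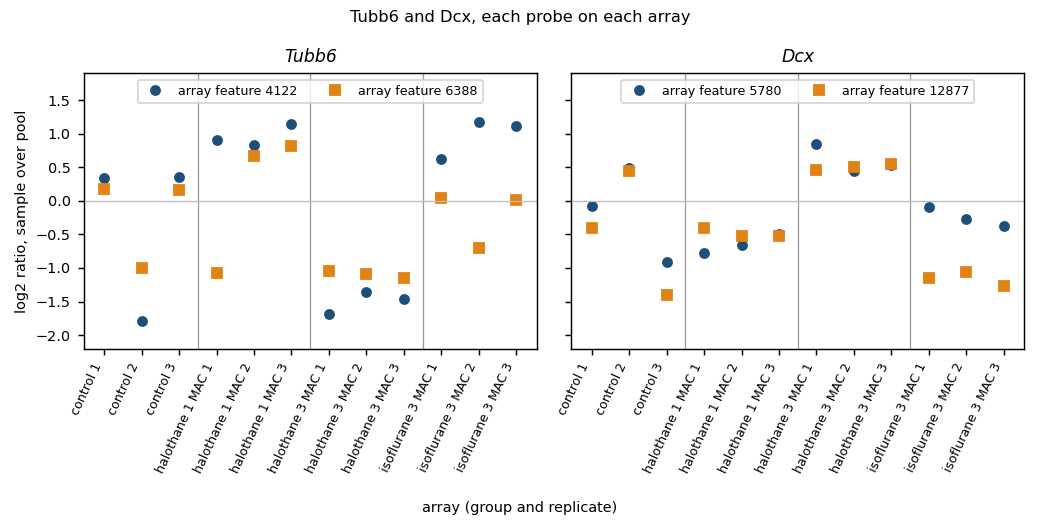
Log2 ratio of sample over pool for each probe of Tubb6 (left) and Dcx (right) on the 12 arrays, with vertical lines between groups. The 2 symbols are the 2 probes of a gene. On the isoflurane arrays the probes stand apart (0.63, 1.17 and 1.11 against 0.04, −0.71 and 0.01 in Tubb6), and on the halothane 3 MAC arrays all lie on one side of 0.

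The 250 bases before the annotated start of these 2 genes are shown because they are the genes that passed. Both come from RefSeq (GRCr8) and run 5′ to 3′ on the gene's strand, with matches to searched motifs in capitals. Tubb6 lies at chr18:63213287-63222926, and its window at chr18:63213037-63213286 on the plus strand. Dcx lies on the minus strand of the X chromosome, and its window at chrX:112304162-112304411 falls inside the annotated span of the gene (chrX:112227455-112370291), upstream of the start that the table gives.
Tubb6: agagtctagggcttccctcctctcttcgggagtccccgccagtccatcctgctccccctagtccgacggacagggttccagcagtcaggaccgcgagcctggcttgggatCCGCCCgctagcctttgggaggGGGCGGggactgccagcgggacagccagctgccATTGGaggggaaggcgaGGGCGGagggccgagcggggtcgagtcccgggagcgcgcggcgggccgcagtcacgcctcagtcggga
Dcx: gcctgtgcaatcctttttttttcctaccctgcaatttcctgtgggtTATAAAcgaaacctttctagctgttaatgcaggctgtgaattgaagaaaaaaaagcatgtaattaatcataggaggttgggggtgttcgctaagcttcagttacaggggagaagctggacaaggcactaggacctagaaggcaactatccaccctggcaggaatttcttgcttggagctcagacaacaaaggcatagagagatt
The Tubb6 window held the GC box GGGCGG 3 times, at −140 (opposite strand), −118 and −68, and the CCAAT box at −85 (opposite strand), counted from the start. The Dcx window held a TATA box (TATAAA) at −204 and neither of the other motifs. GC content was 71.2% in the first window and 44.0% in the second, against a median of 51.2% over 33469 promoters. Of the 29 genes, 19 had such a window in the table. On either strand, GGGCGG was found in 13 of them against 30.5% of all promoters, CCAAT in 9 against 34.0% and TATAAA in 2 against 12.9%. The CRE (TGACGTCA) and the AP-1 site (TGAGTCA) were found in 0 of the 19, against 1.59% and 4.05% of all promoters, and the heat shock core GAANNTTC in 1 (Map2), against 7.23%. A match is a description of the letters and not of a bound site.

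Among the alpha-tubulins, Tuba4a, the isotype that is made without a terminal tyrosine, read 0.00, −0.50 and 0.21 on the controls and −0.05, −0.04 and −0.07 with halothane 1 MAC. It read −0.47, −0.29 and −0.70 with halothane 3 MAC and 0.01, 0.14 and 0.21 with isoflurane. The halothane 3 MAC arrays lay below all arrays of the other treatments, with control 2 among them. Isoflurane stood above halothane 3 MAC by 0.61 ± 0.18 (SE; limma adjusted p = 0.0996), which did not pass. Tuba8, a divergent alpha-tubulin, read −0.84, −0.04 and −1.05 on the controls and −2.42, −0.99 and −1.04 with halothane 1 MAC. It read −0.76, −0.48 and −0.79 with halothane 3 MAC and −0.87, −1.76 and −0.65 with isoflurane. All 12 values were below 0 and the treated groups overlapped the controls, with halothane 1 MAC replicate 1 the lowest. The halothane 1 MAC difference from control was −0.84 ± 0.41, and −0.37 ± 0.34 without that replicate or −0.54 ± 0.43 without control 2. Tuba1a, the main alpha-tubulin of developing neurons, had group means of −1.0 (control), −0.94, −1.38 and −1.48 (isoflurane). Halothane 1 MAC replicate 1 read 0.24 there, and all other arrays lay between −1.67 and −0.75.

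Among the beta-tubulins, Tubb5, a widely expressed isotype, read −0.23, 0.12 and −0.17 on the controls and −0.72, −0.50 and −0.49 with halothane 1 MAC. It read −0.19, −0.05 and −0.11 with halothane 3 MAC and −0.48, −0.28 and −0.57 with isoflurane. Halothane 1 MAC and isoflurane lay below all controls, and halothane 3 MAC lay among them. The difference from control was −0.48 ± 0.15 with halothane 1 MAC (SE; limma adjusted p = 0.626) and −0.35 ± 0.15 with isoflurane (limma adjusted p = 0.424), and neither passed. Tubb2b, a beta-tubulin of migrating neurons, had group means of −0.67, −1.06, −0.87 and −1.04, and its halothane 1 MAC and isoflurane arrays lay below all controls. The neuronal isotype Tubb3 had means between 0.10 and 0.45, the highest being raised by halothane 1 MAC replicate 1 at 1.01. Tubg1, which seeds microtubules at the centrosome, had means of −0.20, −0.01, 0.05 and −0.43, and its isoflurane arrays lay below all halothane arrays (−0.47 ± 0.17 against halothane 3 MAC; limma adjusted p = 0.164).

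Of the 7 microtubule-associated proteins, Mapt encodes tau, which binds along axonal microtubules. It read −0.55, −0.23 and −1.08 on the controls and −0.35, −0.02 and −0.74 with halothane 1 MAC. It read −0.04, −0.16 and 0.71 with halothane 3 MAC and 0.17, −0.15 and −0.73 with isoflurane. Halothane 3 MAC lay above all controls, by 0.79 ± 0.31 on average (SE; limma adjusted p = 0.706), and the arrays of each treatment were widely spread. Map6, which protects microtubules from cold, read −0.35, −0.31 and −0.02 on the controls and −1.36, −0.59 and −0.72 with halothane 1 MAC. It read −0.41, −0.68 and −0.19 with halothane 3 MAC and −0.53, −0.92 and −0.42 with isoflurane. Halothane 1 MAC and isoflurane lay below all controls, by −0.67 ± 0.23 (limma adjusted p = 0.626) and −0.40 ± 0.23 (limma adjusted p = 0.632), and without halothane 1 MAC replicate 1 the first was −0.43 ± 0.19. Map1a, Map1b, Map2 and Map4, which bundle and stabilise microtubules in axons, dendrites or most cells, had group means between −0.47 and 0.42. Map1a lacked a value on isoflurane 1 and rests on 2 arrays there. Between the gases at 3 MAC the 2 probes of Map1b gave −0.13 and −0.52 and the 3 of Map2 −0.22, −0.01 and −0.04.

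The fitted differences of the 4 neurofilament genes between the gases at 3 MAC differed in sign, and none passed. That of Nefm was 0.27 ± 0.29 (SE; limma adjusted p = 0.765), so its sign is not determined. Nefl, the light subunit on which the filament is built, read −0.28, −0.02 and 0.24 on the controls and −0.64, −0.22 and −0.11 with halothane 1 MAC. It read 0.17, 0.21 and 0.14 with halothane 3 MAC and 0.65, 0.78 and 0.65 with isoflurane. The isoflurane arrays lay above the other 9, by 0.72 ± 0.17 against control (SE; 1.64-fold; unadjusted p = 0.0015; limma adjusted p = 0.142) and 1.02 ± 0.17 against halothane 1 MAC (limma adjusted p = 0.0798). Neither passed. Without halothane 1 MAC replicate 1, which enters the first comparison only through the pooled spread, the difference from control passed (limma adjusted p = 0.0229, against 0.0147 to 0.435 over 22 alternative settings). Nefm, the medium subunit, read −0.87, 0.20 and −0.19 on the controls and −1.51, −0.55 and −0.78 with halothane 1 MAC. It read 0.10, 0.12 and −0.04 with halothane 3 MAC and 0.28, 0.56 and 0.15 with isoflurane. Isoflurane lay above both halothane groups, and halothane 3 MAC above halothane 1 MAC, while the controls overlapped every treatment. The isoflurane difference from halothane 1 MAC was 1.28 ± 0.29 (limma adjusted p = 0.103), in groups that differ in gas and in MAC.

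Nefh is the heavy subunit with long side arms, and Ina the internexin that joins neurofilaments early in development. Their fitted differences between the gases at 3 MAC had the opposite sign to that of Nefl, while the sign for Nefm is not determined. Nefh read −0.10, 0.54 and −0.26 on the controls and 1.20, 0.10 and 0.07 with halothane 1 MAC. It read 0.64, 0.32 and 0.67 with halothane 3 MAC and −0.09, −0.23 and −0.03 with isoflurane. The isoflurane arrays lay below all halothane arrays, by −0.66 ± 0.29 against halothane 3 MAC (SE; limma adjusted p = 0.28). Ina read −0.12, 0.68 and −0.18 on the controls and 0.77, −0.35 and −0.26 with halothane 1 MAC. It read 0.37, 0.75 and 0.86 with halothane 3 MAC and −0.22, −0.17 and −0.25 with isoflurane. Halothane 3 MAC lay above isoflurane on all arrays (isoflurane minus halothane −0.87 ± 0.30; limma adjusted p = 0.149), and control 2 and halothane 1 MAC replicate 1 lay among the halothane 3 MAC arrays. None of these differences passed. The mean of the 4 genes was 0.32, 0.35 and 0.41 on the halothane 3 MAC arrays, 0.35 on control 2 and −0.34 and −0.10 on the other controls.

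All 4 stathmins had an isoflurane mean below both control and halothane 3 MAC, with medians of −0.24 and −0.31 and 0 past the threshold. Stmn4, a membrane-bound stathmin of neurons, read −0.18, 0.05 and −0.97 on the controls and 0.42, −0.15 and −0.01 with halothane 1 MAC. It read −0.26, −0.35 and −0.51 with halothane 3 MAC and −0.80, −0.95 and −0.88 with isoflurane. The 3 treatments did not overlap, and control 3 was as low as isoflurane. Isoflurane minus halothane 1 MAC was −0.96 ± 0.24 (SE; limma adjusted p = 0.118) and isoflurane minus control −0.51 ± 0.24 (limma adjusted p = 0.516), or −0.30 ± 0.24 without control 2. Stmn1, the cytosolic stathmin, read −0.14, 0.23 and −0.16 on the controls and −1.20, −0.16 and −0.23 with halothane 1 MAC. It read 0.20, −0.02 and −0.04 with halothane 3 MAC and −0.27, −0.40 and −0.16 with isoflurane. Halothane 1 MAC replicate 1 was the lowest array, and without it the halothane 1 MAC difference from control went from −0.51 ± 0.25 to −0.18 ± 0.14. Stmn2 and Stmn3, the other neuronal stathmins, had group means between −0.22 and 0.21.

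Gap43, the growth-associated protein of axon endings, had the narrowest range of the 29, with means of 0.15, −0.10, 0.13 and −0.10. Basp1, another protein of the growth cone membrane, had means of −0.71, −0.94, −0.50 and −0.55. Of the collapsin response mediators, Dpysl2, which carries tubulin into the growing axon, read −0.66, −0.16 and 0.05 on the controls and −0.46, −0.46 and −0.42 with halothane 1 MAC. It read −0.54, −0.41 and −0.57 with halothane 3 MAC and −0.52, −1.12 and −0.67 with isoflurane. The controls overlapped every treatment, and the isoflurane difference of −0.52 ± 0.20 did not pass (SE; limma adjusted p = 0.378). Dpysl4 and Dpysl5 had group means between −0.50 and 0.04. Cfl1 (cofilin), which severs actin filaments, had means of −0.47, −0.21, −0.39 and −0.57, and halothane 1 MAC replicate 1 was its only array above 0.

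Against control, no treatment moved any of the 29 genes past the threshold. Halothane 1 MAC asks what a clinical concentration leaves behind after recovery, and here 0 genes passed in limma (0% of all features) and 0 in the ordinary linear model. By unadjusted p under 0.05 there were 4 genes, all lower, beside 7.54% of features. In 5 genes, Tubb2b, Tubb5, Map6, Stmn1 and Dpysl5, the treated arrays lay below all controls (3.9% of features), and in 0 they lay above (6.29%). The median difference was −0.19, against 0.08 over all features, with 12 of 29 genes above 0. Without control 2 and halothane 1 MAC replicate 1 the median was −0.07.

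Halothane 3 MAC also gave 0 genes past the threshold in limma (0% of features) and 0 in the ordinary linear model, with 3 at unadjusted p under 0.05 (6.59%). Tuba1a lay below all controls (6.97% of features did), and Mapt and Dcx above (9.13%). The median difference was 0.04, against 0.00 over all features. Control 2, which resembled the treated arrays, weighs on this comparison. With it left out 2 genes passed, Tubb6 and Dcx, beside 2.81% of features. With halothane 1 MAC replicate 1 left out as well, 5 passed (Dcx, Ina and Nefh higher, Tuba4a and Tubb6 lower) beside 10.8% of features. The choice to leave out control 2 was made knowing that it resembled the treated arrays. The controls then left, 1 and 3, had a mean r of 0.17 and 0.00 with halothane 3 MAC. Whether control 2 shares a mother with those arrays is not settled by the labels.

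Isoflurane gave 0 genes past the threshold in limma, where 0.0725% of features passed (0.0604% higher and 0.0121% lower), and 0 in the ordinary linear model, with 3 at unadjusted p under 0.05 (10.1%). In 9 of the 28 genes with all values, the isoflurane arrays lay below all controls (9.93% of features). These were Tuba1a, Tubb2b, Tubb5, Map4, Map6, Stmn1, Stmn2, Gap43 and Dpysl4. Nefl alone lay above all controls (12.8% of features). The median difference was −0.23, against 0.00 over all features, with 8 of 29 genes above 0, and without control 2 the median was −0.06. The 3 comparisons share their control arrays. The 95% intervals of the differences had half-widths of 0.31 to 0.89 with a median of 0.49, so differences within those widths could not be told from 0 with 3 arrays a group.

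Between the halothane doses 0 genes passed in limma (0% of features) and 0 in the ordinary linear model, with 8 at unadjusted p under 0.05 (18.5%). In 10 genes halothane 3 MAC lay above halothane 1 MAC on all arrays (12.2% of features) and in 3 below (15.4%). The 10 were Tuba8, Tubb5, Map1b, Map2, Dcx, Nefl, Nefm, Stmn1, Dpysl4 and Dpysl5, and the 3 Tuba4a, Tubb6 and Stmn4. Genes with several probes are counted by the average, and single probes of Tubb6 and Map2 overlapped. The median was 0.22, against −0.08 over all features. Tubb6, Dcx and Nefm had the smallest p, with Nefm at 1.01 ± 0.29 (SE; limma adjusted p = 0.105), or 0.72 ± 0.25 without halothane 1 MAC replicate 1. Without control 2, which enters only through the pooled spread, Tubb6 and Dcx passed beside 4.22% of features.

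Between the gases at 3 MAC, 8 genes had an unadjusted p under 0.05, 3 higher and 5 lower with isoflurane, beside 16.8% of features. The isoflurane arrays lay above all halothane 3 MAC arrays in 4 of 28 genes (Tuba4a, Tubb6, Nefl and Nefm; 19.5% of features) and below in 12 (17.9%). The 12 were Tubb5, Tubg1, Map1b, Map4, Dcx, Nefh, Ina, Stmn1, Stmn2, Stmn4, Gap43 and Dpysl4. The median difference was −0.22, against −0.01 over all features, and 5 of 29 genes were above 0. With control 2 and halothane 1 MAC replicate 1 left out, neither of which changes these differences, 8 genes passed: Tubb6, Tuba4a and Nefl higher and Dcx, Ina, Nefh, Tubb5 and Tubg1 lower, beside 18.1% of features. With any single array left out, the number past the threshold lay between 0 and 6. The 6 were reached without halothane 1 MAC replicate 1, beside 12.4% of features. It was 0 without any of the 6 arrays of these 2 groups, where 0% to 0.369% of features passed.

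**Figure D4:**
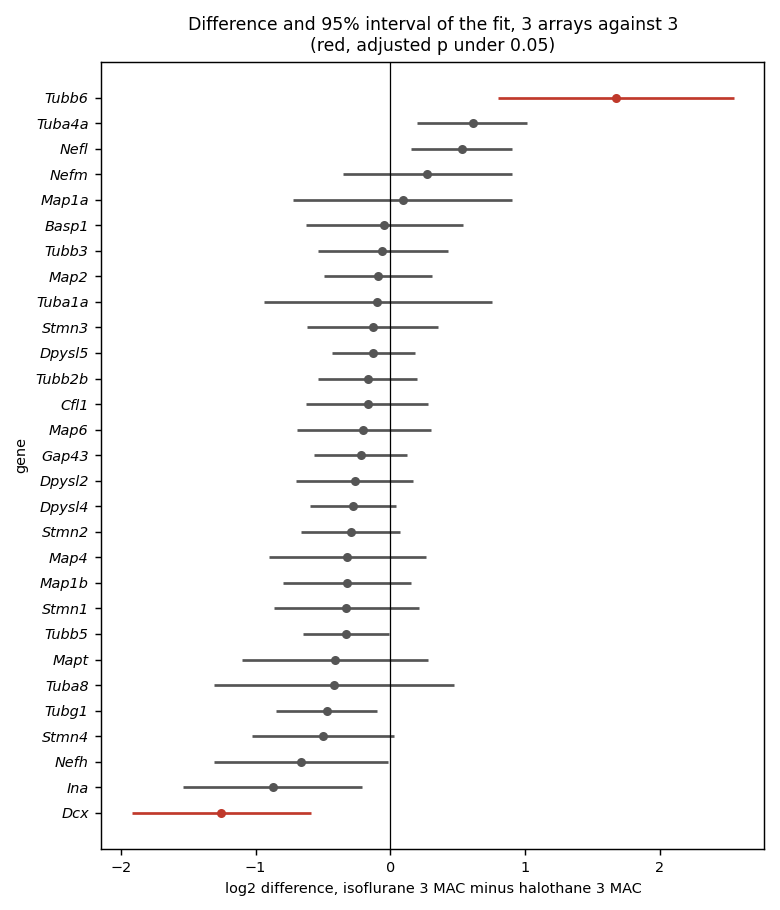
Difference of isoflurane 3 MAC minus halothane 3 MAC on the log2 scale for the 29 genes, with points at the fitted difference and lines for the 95% interval. Tubb6 at 1.67 and Dcx at −1.26, in red, passed the threshold, and 24 of the 29 points lie below 0.

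Isoflurane and halothane 1 MAC, which differ in gas and in MAC, gave 0 genes past the threshold in limma (0% of features) and 0 in the ordinary linear model, with 4 at unadjusted p under 0.05 (17.9%). Isoflurane lay above on all arrays in Tuba4a, Nefl and Nefm (12.3% of features) and below in 6 genes (13.3%): Tubg1, Dcx, Nefh, Stmn3, Stmn4 and Dpysl2. For Dcx this holds only for the average of its probes, which differed in sign when fitted alone (0.4 and −0.67). A test for any difference among the 4 groups called 0 of 29 genes, against 0.205% of features, and 7 at unadjusted p under 0.05, against 17.7%. Nefl had the smallest adjusted p there, at 0.0686 in limma.

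The list means of markers of some other cells moved with the 2 genes that passed. Astrocyte markers, 13 of 14 measured, had a mean ratio of −0.97 to −0.85 on the halothane 3 MAC arrays and −0.86 on control 2, against −0.04 to 0.32 on the other 8. In isoflurane minus halothane 3 MAC, 11 of the 13 were above 0, with a median of 0.94. Of these markers 4 passed higher (Gfap, Slc1a3, Sparcl1 and Clu) and 1 lower. Gfap, the astrocyte filament protein, was 2.94 ± 0.47 higher (SE; limma adjusted p = 0.017), and Aldh1l1, a folate enzyme of astrocytes, was lower (−0.74 ± 0.17; limma adjusted p = 0.0373). Tubb6, as the average of its probes, was low on the same 4 arrays. Markers of dividing cells and neural progenitors, 10 of 12 measured, had a mean of 0.45 to 0.55 on the halothane 3 MAC arrays and 0.37 on control 2, against −0.69 to 0.06 on the other 8. Dcx was high on those 4. Not every marker of that list followed its mean. On the halothane 3 MAC arrays Sox2 read −0.39, −0.39 and −0.60 and Nes −0.20, −0.52 and −0.32. In isoflurane minus halothane 3 MAC, 4 of the 10 were above 0, and 2 passed lower and 1 higher. Eomes, a transcription factor of intermediate progenitors, was lower (−2.62 ± 0.63; limma adjusted p = 0.045), as was the replication helicase Mcm6 (−1.56 ± 0.30). Nes (nestin), the progenitor filament, was higher (1.25 ± 0.18; limma adjusted p = 0.0116). Neuron markers, 12 of 16 measured, had means of −0.44 to −0.03 on all arrays. In isoflurane minus halothane 3 MAC 1 of them passed, Gad1, which makes the transmitter GABA (−1.21 ± 0.25; limma adjusted p = 0.0287). It read 0.59 on control 2, 0.04, 0.10 and 0.12 with halothane 3 MAC and −1.36 to −0.35 on the other 8. Among the other lists, 0 of 9 oligodendrocyte, 0 of 9 microglial and 0 of 9 endothelial markers passed between these gases. Their medians were 0.09, 0.43 and 0.15. Of 7 fibroblast markers (median −0.24) 1 passed, Fn1 (fibronectin), 2.59 ± 0.43 higher with isoflurane (limma adjusted p = 0.0176). All these marker counts stand beside 3.51% of features. In these bulk cultures fewer cells of a type and less RNA per cell cannot be told apart, and the part of these cells in the Tubb6 and Dcx results was not tested. A ratio to a pool does not show whether a marker was present or absent, so the labelled cell type could not be checked by level.

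The wider cytoskeletal pathway was followed with 7 lists. None of their genes passed against control, between the halothane doses or between isoflurane and halothane 1 MAC. Between isoflurane and halothane 3 MAC, 0 of 13 genes of tubulin folding and nucleation passed, 0 of 18 motor genes and 0 of 23 kinases and phosphatases of tau and neurofilaments, beside 3.51% of all features. Of 21 genes of microtubule ends and severing, only the doublecortin-like kinase Dclk1 passed, and it was 0.73 ± 0.13 higher with isoflurane (SE; limma adjusted p = 0.0213), opposite in sign to Dcx. Of 32 actin and growth cone regulators 3 passed. Arpc1b, a subunit of the actin branching complex, was 2.90 ± 0.43 higher (limma adjusted p = 0.0131). Msn (moesin), which ties actin to the membrane, was 1.07 ± 0.22 higher, and Dbn1 (drebrin), an actin-binding protein of dendritic spines, fell by 0.70 relative to halothane. Of 31 guidance and adhesion genes 1 passed, and the ephrin receptor Epha4 was 1.61 ± 0.34 higher (limma adjusted p = 0.0309). Of 10 other intermediate filament genes 4 passed. Gfap, Vim (vimentin, 1.70 ± 0.30) and Nes were higher and Prph, the peripherin that can join neurofilaments, was lower (−1.24 ± 0.22). Gfap, Vim and Nes are filaments of glia and progenitors rather than of mature neurons. The medians of the 7 lists lay between −0.14 and 0.10, near the −0.01 of all features.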

How the data were processed

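The authors hybridised each sample (Cy5) with a pool of control RNA (Cy3) on a two-colour Agilent array, per the labels, and deposited a log10 ratio per spot. Base and direction are likely: values stop at exactly 2, as Agilent ratios in base 10 do, and the labelled dyes give the direction. Partek is named in the submitters' processing notes, while the array corrections are not given in the sources. Values were multiplied by 3.32 to log2. Exact zeros (5.96% of values) were taken as missing, and 471 spots at the limit on at least 10 arrays were left out. Probes with a value on every array were averaged per gene, and where a gene had none its most complete probe was taken. Features with at least 2 values in every group (16546: 9210 genes and 7336 unnamed probes) were fitted with limma 3.58.1 in R 4.3.3, as 4 group means with eBayes, and adjusted by Benjamini-Hochberg over all of them (threshold 0.05). The fit was tested on simulated data with independent noise and no array that stood apart, so that test does not cover arrays like those described above. No spot intensities were used, so detection above background was not judged, and precision is set by 3 arrays a group. Genes given array by array passed in a comparison, were among the 3 of smallest p in one, or were among the 12 of widest range. The members, lists and rule were chosen with earlier results of these data known. Alternatives were the arrays left out in turn, the replicate number as a block, 3 scalings, zeros kept, complete features, 1 probe per gene, array weights and variances not moderated.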

Additional observations from a re-analysis of the deposited data

Results flagged for a closer look

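Tubb6 and Dcx are set apart because their differences from control were themselves different between the gases at 3 MAC, by the test of isoflurane minus halothane, in which the shared controls cancel. For Tubb6 this difference was 1.67 (limma adjusted p = 0.044), with all 3 isoflurane arrays above all 3 halothane arrays. For Dcx it was −1.26 (limma adjusted p = 0.045), with all 3 isoflurane arrays below. Over 22 alternative settings Tubb6 ranged from 1.58 to 2.47 and passed in 8, and Dcx ranged from −1.37 to −0.85 and passed in 6. Neither passed with the arrays rescaled, zeros kept, the replicate number as a block or variances not moderated. The limma adjusted p lay between 2.45e-05 and 0.154 for Tubb6 and between 0.000285 and 0.157 for Dcx. Halothane 3 MAC minus control 2, the control most like it across genes, was 0.10 for both genes. With controls 1 and 3 it was −1.55 and −1.56 for Tubb6 and 0.80 and 1.72 for Dcx. Isoflurane minus control 3, its most similar control, was 0.12 for Tubb6 and 0.46 for Dcx. With controls 1 and 2 it was 0.12 and 1.77, and −0.46 and −1.16. The labels do not settle the mothers, so gas and mother may not be separable.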

How the results depend on the processing

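None of the 22 named gene differences changed sign under any alternative. They were picked for a small p or a wide range, and a small p itself favours a steady sign. Of all 174 differences (29 genes in 6 comparisons), 48 changed sign with some single array left out, and 0 of these had an unadjusted p under 0.05. An example is Tuba1a in halothane 1 MAC against control (−0.52 to 0.43). The median for isoflurane against halothane 1 MAC ran from −0.07 to 0.03. Between the gases at 3 MAC, 2 genes passed, against 0 to 6 with single arrays left out: 0 without halothane 1 MAC replicate 2 or 3 (2.34% and 2.62% of features) or any array of the 2 groups compared, 1 without control 1 (2.83%), 3 without control 2 (6.27%) and 6 without halothane 1 MAC replicate 1 (12.4%). That count was 0 with the replicate number as a block, with median centring, quantile normalization, scaling to 1 spread, zeros kept or variances not moderated, 1 with 1 probe per gene, 12 with array weights and 8 without control 2 and halothane 1 MAC replicate 1, a setting added after seeing the data. The features past the threshold numbered 580, and 432, 522, 600, 565, 395, 22, 562, 4390 and 2994 in the same order. With single arrays left out the counts ran from 0 to 2 for halothane 3 MAC against control, 0 to 1 for isoflurane against control, 0 to 2 between halothane doses, 0 to 1 for isoflurane against halothane 1 MAC and 0 to 4 for any difference. The highest of these counts stood beside 2.81%, 2.33%, 4.22%, 0.314% to 0.447% and 4.97% of features. With array weights these counts were 3, 1, 10, 3 and 8, beside 4.38%, 2.09%, 25.4%, 13.4% and 15.1% of all features. Without the 2 arrays together they were 5, 1, 5, 2 and 7, beside 10.8%, 1.63%, 9.89%, 3.17% and 17.8%. With single arrays left out the median difference ran from −0.30 to −0.06 for isoflurane against control and from −0.26 to −0.14 for halothane 1 MAC against control, and without the 2 arrays it was −0.06, and −0.07 for halothane 1 MAC against control. Same-numbered arrays deviated from their group means together at r of −0.08 to 0.10, against −0.13 to 0.16 for other pairs. The numbers thus gave no sign of pairing, but such deviations cannot show a control that goes with a whole treatment group. The block changed no count but the 2 between the gases. The causes of these changes were not tested. With 8 residual and 3.46 prior degrees of freedom, the number of arrays limits what can be called.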

Other observations

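On the controls themselves, 8 of the 29 genes read below the pool on all 3 arrays (Tuba1a, Tuba8, Tubb2b, Map6, Mapt, Basp1, Dpysl5 and Cfl1), against 20.5% of all features with values there. Over the 29 genes, the array means were −0.31, −0.07 and −0.26 on the controls, −0.27, −0.32 and −0.33 with halothane 1 MAC, −0.13, −0.14 and −0.17 with halothane 3 MAC and −0.31, −0.38 and −0.28 with isoflurane. Control 2 again stood nearer to the halothane 3 MAC arrays than to the other controls.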
